A study of Mus musculus with 18 samples.

Results

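Transcripts of 9 genes that mark B cells and their antibody-secreting descendants were followed in mouse tumours, out of 21015 genes in the deposited table. They were taken by symbol: Ms4a1, Cd79a, Cd79b, Pax5, Blk and Cd22 as B cell genes, and Jchain, Mzb1 and Tnfrsf17 as plasma cell genes. The samples were bulk RNA of whole tumours grown from MC38-OVA, colon carcinoma cells of the mouse that carry the antigen ovalbumin, in hosts aged 10 weeks. The hosts were wild type or lacked Adra2a, the gene of the alpha-2A adrenergic receptor, and the implanted tumour cells bring their own genome, so that only host cells lack the gene. Each genotype had 3 groups of 3 libraries, given daily intraperitoneal clonidine, guanabenz (both agonists of alpha-2 adrenergic receptors) or no drug, and tumours were taken 7 days after treatment. The control libraries are called untreated in the sample entries and PBS-treated in the protocol, and no source used here gives the doses or the host strain. The 3 knockout libraries titled guanabenz carry the treatment entry of untreated samples. Their titles were followed here, so every value under that name rests on the titles alone. Nothing in the labels says from which animals the libraries of a group came. The p-values therefore measure the spread between libraries, and how much of it lies between animals is not known.

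B cells recognise antigen through a surface immunoglobulin that signals by way of the CD79A and CD79B chains. CD20 (Ms4a1) and the inhibitory lectin CD22 sit beside it, BLK is a kinase of the same pathway, and PAX5 is the transcription factor that keeps cells in the B lineage. On becoming plasma cells they shut down PAX5 and make antibody, joined into polymers by the J chain (Jchain), folded with help of MZB1, while BCMA (Tnfrsf17) carries survival signals. In tumours B cells can gather with T cells in lymphoid aggregates, for which the chemokine CXCL13 is a known attractant.

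The libraries held 54683838 to 491137160 estimated counts, with a median of 92401940. Adra2a read 0.286 to 0.589 CPM (counts per 1000000, with library sizes scaled by the trimmed mean of M values) in the 9 libraries of wild-type hosts and 0.0917 to 0.293 CPM in the 9 of knockout hosts, so the 2 ranges overlapped narrowly. The pan-leukocyte gene Ptprc read 114 to 177 CPM, whereas the keratin genes Krt8, Krt18 and Krt19, markers of a carcinoma, did not exceed 0.534 CPM in any library. The other carcinoma genes read, Cdh1 and Epcam, reached higher levels. Per kilobase of the longest annotated transcript they read 0.695 to 2.2 and 0.184 to 1.35 CPM, and the keratin genes at most 0.372. The mean of the Y-linked genes Ddx3y, Eif2s3y and Uty was above 1 CPM in 11 of the 18 libraries and in 0 of the 3 from clonidine-treated knockout hosts. It also differed within groups, as in the clonidine-treated wild-type libraries at 7.84, 8.6 and 0.19 CPM, so the libraries of that group were not alike in it. In whole tumours, fewer cells of a type and less RNA per cell cannot be told apart.

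All 9 genes were detected in every library, at low levels. Per kilobase of the longest annotated transcript, a scale on which genes can be compared, Cd79b had the highest median of the 9, 3.25 CPM per kilobase, followed by Cd22 at 1.96 and Jchain at 0.747. Cd79a stood at 0.322, Mzb1 at 0.132, Ms4a1 at 0.131, Tnfrsf17 at 0.0484, Blk at 0.0375 and Pax5 at 0.0106 CPM per kilobase. Cd79a and Cd79b encode partners of 1 heterodimer, yet Cd79b was 10.5 times as high as Cd79a in the median library, and between 7.52 and 14.8 times in all 18. Cd22 exceeded Ms4a1 on the same scale by 9.12 to 25.5 times. By comparison the T cell receptor chain gene Cd3e read 2.52 and Ptprc 27.9. How much of Cd79b and Cd22 came from cells other than B cells was not tested.

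**Figure D1:**
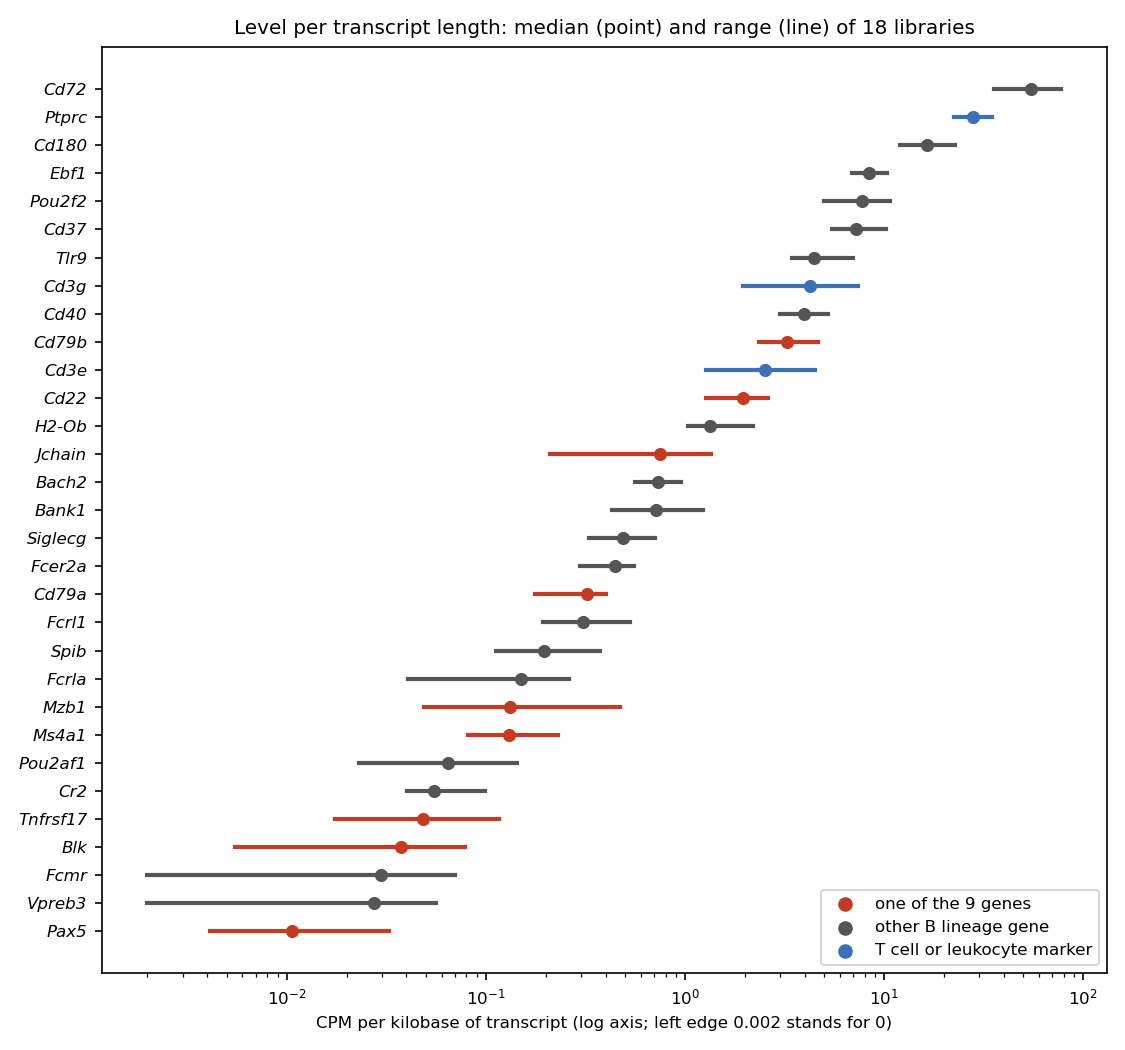
Median (point) and range (line) over 18 libraries of CPM per kilobase of transcript, on a log axis, for the 9 genes, a selection of other B lineage genes and 3 leukocyte or T cell markers; values of 0 are drawn at the left edge. Cd79b (3.25) and Cd22 (1.96) lie far above Cd79a (0.322), Ms4a1 (0.131) and Pax5 (0.0106), the lowest of those drawn.

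None of the genes passed edgeR's adjusted threshold in any of the 9 comparisons made. Of the 9, 8 had enough counts to be tested and Tnfrsf17 did not. edgeR's quasi-likelihood test with Benjamini-Hochberg adjustment over 16125 genes called 0 of the 8 members at an adjusted p under 0.05 for clonidine against control in wild-type hosts, where it called 0% of all genes. At an unadjusted p under 0.05 it took 1 of the 8, Cd79b, where 12.9% of all genes passed. For guanabenz in wild-type hosts it called 0 members and 0% of genes, and 1 member, Cd22, and 11.4% of genes without adjustment. In knockout hosts the adjusted calls were 0 members and 0.0186% of genes for clonidine, and 0 members and 0.0124% for the libraries titled guanabenz. Without adjustment the same 2 comparisons took 0 members against 5.52% of genes and 0 members against 15.1%.

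Between genotypes, the control hosts gave 0 member calls and 0.0062% of genes after adjustment by edgeR, and 0 members and 3.68% before it. The clonidine-treated hosts, knockout against wild type, differed most widely, with 2.5% of genes called after adjustment and 19.6% before, but 0 and 1 of the members, the 1 being Mzb1. Clonidine against guanabenz in wild-type hosts gave 0 members and 0% after adjustment, and 2 members (Cd22 and Mzb1) and 5.05% before. For the test of whether the drug effect differed between genotypes, clonidine gave 0 members and 0% after adjustment and 0 members and 8.94% before. Guanabenz gave 0 members and 0.0062% after adjustment, and 1 member (Cd22) and 5.71% before. DESeq2 also called 0 members in all 9 comparisons, with 0 to 1 at an unadjusted p under 0.05, although it returned an adjusted p for only 2 to 4 of the 8 in 4 of them. limma-voom called 1, Mzb1 in clonidine-treated knockout against wild-type hosts, and took 0 to 2 members without adjustment.

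Cd79b, the more abundant of the receptor's signal chains, spanned 2-fold over the 18 libraries. In wild-type hosts Cd79b read 4.72, 3.63 and 3.48 CPM in the control libraries, 6.71, 5.09 and 4.59 under clonidine and 3.36, 4.24 and 5.86 under guanabenz. In knockout hosts it read 4.79, 3.69 and 4.41 CPM in the control libraries, 4.62, 5.32 and 4.06 under clonidine and 6.19, 5.56 and 4.67 in those titled guanabenz. The highest library was a clonidine-treated wild-type one and the lowest a guanabenz-treated one, and the ranges of all 6 groups overlapped. The mean went from 3.94 ± 0.675 CPM (SD, n = 3) in wild-type controls to 5.47 ± 1.11 under clonidine, a log2 difference of 0.47 with a standard error (SE) of 0.201 (unadjusted p = 0.031, adjusted p = 0.327, edgeR). The lowest clonidine library (4.59) lay below the highest control (4.72). The libraries titled guanabenz in knockout hosts had the same mean, 5.47 ± 0.768 CPM, and differed from their controls by 0.35 (SE 0.203, edgeR adjusted p = 0.442). The clonidine effect on Cd79b in wild-type minus knockout hosts was 0.36 with a 95% interval of -0.249 to 0.96. Without wild-type clonidine library 1, the difference in wild-type hosts was 0.30 (edgeR adjusted p = 0.648, against 0.0538 to 0.668 over all 16 alternatives).

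Cd79a, at chr7:24897497-24901858 on the plus strand of GRCm38, spanned 2.29-fold over the 18 libraries. The upstream stretch shown is the part of its RefSeq promoter entry (GRCm38.p6, chr7:24897247-24897380, plus strand) that lies clear of annotated exons. It is given because Cd79a is a textbook target of the EBF and PAX5 factors. Neither of the 2 motifs searched, the EBF core letters CCCNNGGG and the octamer ATGCAAAT, was in it letter for letter, so it has no capitals. Sites that differ from these letters were not searched for, so the lack of capitals does not mean that no EBF site is there.
Cd79a: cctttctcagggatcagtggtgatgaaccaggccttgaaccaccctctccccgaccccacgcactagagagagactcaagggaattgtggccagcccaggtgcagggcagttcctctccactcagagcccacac

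The wild-type libraries held Cd79a at 0.589, 0.38 and 0.472 CPM without drug, at 0.495, 0.467 and 0.514 with clonidine and at 0.257, 0.411 and 0.404 with guanabenz. The knockout libraries held it at 0.41, 0.359 and 0.471 CPM without drug, at 0.567, 0.443 and 0.51 with clonidine and at 0.55, 0.48 and 0.467 in those titled guanabenz. Within groups the counts of Cd79a, 1071 in all, scattered by 0.905 times what counting alone gives (chi-square per degree of freedom). The guanabenz-treated wild-type libraries were the lowest group, at 0.357 ± 0.0867 CPM (n = 3), and all 3 lay below the 3 clonidine-treated ones at 0.492 ± 0.0237. The difference between these 2 drugs was 0.44 (log2, SE 0.234, unadjusted p = 0.0811, edgeR). The share of all genes with such a separation of 2 groups was not counted, here or for the genes below. Against controls, guanabenz gave -0.40 in wild-type hosts (95% interval -0.901 to 0.0925) and, by the titles, 0.26 in knockout hosts (-0.238 to 0.766). Clonidine gave 0.03 in wild-type hosts, with an interval of -0.446 to 0.509.

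Cd22, whose product dampens receptor signalling, was the most abundant of the 9 in counts and the 1 member with a drug-by-genotype difference at an unadjusted p under 0.05 in the edgeR fit of all 18 libraries. Cd22 lies at chr7:30865404-30880342 on the minus strand of GRCm38. The 148 bases shown (GRCm38.p6, chr7:30879029-30879176, minus strand, outside annotated exons) precede the transcript start used by its RefSeq promoter entry. That start lies inside the gene's span, so the stretch is not upstream of the whole gene. It is shown because it holds the core letters of an EBF site, CCCNNGGG, in capitals 48 bases before that start.
Cd22: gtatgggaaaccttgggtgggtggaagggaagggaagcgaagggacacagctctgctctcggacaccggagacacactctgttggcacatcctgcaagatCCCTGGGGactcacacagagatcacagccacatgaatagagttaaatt
The same letters, searched on both strands, occur in 13.7% of 32851 mouse promoter entries of the same length. The octamer ATGCAAAT occurs in 1.74% of them and in none of the 5 entries found for these genes (Pax5, Jchain, Cd79a, Cd22 and Tnfrsf17). Such matches describe letters, not sites in use. An antisense gene, Gm29439, overlaps exons of Cd22, and no source used here says whether the counting used strand, so reads of the 2 cannot be told apart.

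In wild-type hosts Cd22 read 8.05, 6.21 and 6.41 CPM in the control libraries, 7.62, 6.45 and 8.46 under clonidine and 5.09, 5.84 and 5.36 under guanabenz. In knockout hosts it read 8.38, 7.95 and 6.1 CPM in the control libraries, 7.39, 8.97 and 7.95 under clonidine and 10.4, 8.92 and 8.25 in those titled guanabenz. All 3 guanabenz-treated wild-type libraries (up to 5.84) lay below every other library, and the highest value, 10.4, was in a knockout library titled guanabenz. In order of group means, guanabenz-treated wild type (5.43 ± 0.38, n = 3) did not overlap wild-type controls (6.89 ± 1.01). Each later neighbour overlapped the next: knockout controls (7.48 ± 1.21), clonidine-treated wild type (7.51 ± 1.01), clonidine-treated knockout (8.1 ± 0.802) and knockout titled guanabenz (9.19 ± 1.11). Guanabenz against control gave -0.34 in wild-type hosts (log2, SE 0.147, edgeR unadjusted p = 0.0331, adjusted p = 0.393) and 0.30 in knockout hosts (SE 0.146, edgeR adjusted p = 0.343). Without wild-type control library 1 the first of these was -0.22 (unadjusted p = 0.176, edgeR), and 10 of 16 alternatives had an unadjusted p under 0.05, with adjusted p-values of 0.262 to 0.816.

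The difference between these 2 guanabenz effects on Cd22 was -0.64 (SE 0.207, 95% interval -1.08 to -0.203, unadjusted p = 0.00679), which did not survive adjustment (adjusted p = 0.866, edgeR). It ran from -0.73 to -0.51 over 21 alternatives, all of which had an unadjusted p under 0.05 and adjusted p-values of 0.371 to 0.997. Clonidine gave nearly equal changes of Cd22 in both genotypes, 0.12 and 0.12, and their difference of 0.00 had an interval of -0.43 to 0.44. Between the 2 drugs in wild-type hosts, Cd22 was higher under clonidine by 0.47 (SE 0.147, unadjusted p = 0.0058, adjusted p = 0.957, edgeR), and no clonidine library overlapped a guanabenz one.

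Ms4a1, the gene of CD20, had group means from 0.335 to 0.523 CPM. The wild-type libraries held Ms4a1 at 0.446, 0.452 and 0.41 CPM without drug, at 0.495, 0.368 and 0.708 with clonidine and at 0.257, 0.352 and 0.454 with guanabenz. The knockout libraries held it at 0.334, 0.398 and 0.272 CPM without drug, at 0.267, 0.467 and 0.311 with clonidine and at 0.458, 0.429 and 0.25 in those titled guanabenz. The wild-type controls were the tightest group, at 0.436 ± 0.023 CPM (n = 3), and all 3 exceeded the 3 knockout controls at 0.335 ± 0.0629. That difference, knockout against wild type, was -0.38 (log2, SE 0.32, unadjusted p = 0.246, edgeR). Clonidine-treated wild-type hosts had the highest mean, 0.523 ± 0.172, through 1 library at 0.708. Clonidine against control gave 0.25 for Ms4a1, with a 95% interval of -0.401 to 0.894, an interval that included 0.

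Pax5 and Blk were close to the limit of counting: Pax5 had under 10 counts in 9 libraries and Blk in 11. In wild-type hosts Pax5 read 0.122, 0.0925 and 0.0745 CPM in the control libraries, 0.033, 0.099 and 0.194 under clonidine and 0.0735, 0.117 and 0.0694 under guanabenz. In knockout hosts it read 0.122, 0.141 and 0.0543 CPM in the control libraries, 0.0333, 0.0554 and 0.0778 under clonidine and 0.262, 0.227 and 0.0683 in those titled guanabenz. Pax5 was highest in 2 of the libraries titled guanabenz, while the third lay within the range of the knockout controls. For that comparison the log2 difference was 0.84 (95% interval -0.421 to 2.1, edgeR adjusted p = 0.544). Clonidine gave 0.14 in wild-type hosts (-1.06 to 1.34) and -0.78 in knockout hosts (-2.17 to 0.598).

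The wild-type libraries held Blk at 0.0812, 0.0514 and 0.145 CPM without drug, at 0.0791, 0.102 and 0.183 with clonidine and at 0.129, 0.0587 and 0.0442 with guanabenz. The knockout libraries held it at 0.106, 0.0128 and 0.0996 CPM without drug, at 0.0834, 0.119 and 0.0637 with clonidine and at 0.0393, 0.152 and 0.0911 in those titled guanabenz. The lowest Blk value was a single count in a knockout control, and all group ranges overlapped. Clonidine gave 0.21 in wild-type hosts with an interval of -0.971 to 1.39, and guanabenz -0.52 with an interval of -1.86 to 0.812. Blk is also known from interleukin-17-producing gamma-delta T cells, whose list of 7 measured genes had 5 tested. All 5 had positive clonidine estimates in wild-type hosts, with a median of 0.48 (log2) and 0 called by edgeR (1 at an unadjusted p under 0.05), while Il17a was at 0 in all but 1 library. The part of such cells in Blk was not tested.

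The J chain gene had the highest median level of the 3 plasma cell members and spanned 6.44-fold over the libraries. In wild-type hosts Jchain read 0.568, 0.874 and 1.48 CPM in the control libraries, 1.77, 1.69 and 1.42 under clonidine and 0.294, 1.89 and 0.625 under guanabenz. In knockout hosts it read 1.02, 0.782 and 1.72 CPM in the control libraries, 0.7, 1.87 and 0.602 under clonidine and 1.45, 0.973 and 1.06 in those titled guanabenz. The clonidine-treated wild-type libraries all read at least 1.42 CPM, and each of the other 5 groups had 1 library at or above that and 2 below it. The means were 0.974 ± 0.464 CPM in wild-type controls and 1.63 ± 0.187 under clonidine (SD, n = 3), a log2 difference of 0.72 (SE 0.53, 95% interval -0.405 to 1.84, adjusted p = 0.608, edgeR). All group ranges of Jchain overlapped that of the clonidine-treated wild-type group. Guanabenz gave -0.08 in wild-type hosts and -0.03, by the titles, in knockout hosts, and clonidine gave -0.15 in knockout hosts.

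The wild-type libraries held Mzb1 at 0.112, 0.123 and 0.217 CPM without drug, at 0.349, 0.428 and 0.137 with clonidine and at 0.0551, 0.279 and 0.0442 with guanabenz. The knockout libraries held it at 0.152, 0.115 and 0.199 CPM without drug, at 0.05, 0.206 and 0.0778 with clonidine and at 0.0524, 0.0505 and 0.0797 in those titled guanabenz. The 2 highest Mzb1 libraries were clonidine-treated wild type, though the third of that group (0.137) lay among the controls. The libraries titled guanabenz in knockout hosts were lowest as a group, 0.0609 ± 0.0163 CPM (n = 3), and did not overlap the knockout controls at 0.156 ± 0.042. That difference was -1.35 (log2, SE 0.723, edgeR adjusted p = 0.396) and rested on 15 counts in all against 41.

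For clonidine-treated hosts, Mzb1 was lower in knockout than in wild-type tumours by edgeR's estimate of -1.41 (log2, SE 0.597, 95% interval -2.68 to -0.149, unadjusted p = 0.0306, adjusted p = 0.203), from means of 0.111 ± 0.0831 and 0.305 ± 0.15 CPM whose ranges overlapped. limma-voom with quality weights gave -1.98 and an adjusted p of 0.0476. DESeq2 gave -1.43 (unadjusted p = 0.0459) and returned no adjusted p for Mzb1 here. Over the others of the 15 alternatives the adjusted p ran from 0.0476 to 0.493. The estimate was -2.20 without clonidine-treated knockout library 2, the highest of its group. It was -1.09 without clonidine-treated wild-type library 2 and -1.14 and -1.16 without knockout libraries 1 and 3, with unadjusted p-values of 0.128, 0.101 and 0.11 by edgeR, and 10 of 15 alternatives had an unadjusted p under 0.05. The mean of Ddx3y, Eif2s3y and Uty was above 1 CPM in 0 of these 3 knockout libraries and in 2 of the 3 wild-type ones. With a term for that split the Mzb1 difference was -0.94 (unadjusted p = 0.209, edgeR). Clonidine against control in wild-type hosts gave 0.98 for Mzb1 (SE 0.561, adjusted p = 0.482, edgeR), and clonidine against guanabenz gave 1.40 (SE 0.622, unadjusted p = 0.0386, adjusted p = 0.957). Without guanabenz-treated library 3 the latter was 0.86 (unadjusted p = 0.197, edgeR), without library 2 of that group 2.68 (unadjusted p = 0.000936), and 9 of 15 alternatives had an unadjusted p under 0.05, with adjusted p-values of 0.276 to 1. Exons of Mzb1 overlap those of SPATA24 on the same strand, so part of its counts is uncertain.

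Tnfrsf17, encoding the survival receptor BCMA, held 102 counts over all libraries and under 10 in 16 of them. In wild-type hosts Tnfrsf17 read 0.0406, 0.0206 and 0.0414 CPM in the control libraries, 0.0396, 0.0954 and 0.0571 under clonidine and 0.0735, 0.0147 and 0.0189 under guanabenz. In knockout hosts it read 0.0152, 0.0385 and 0.0453 CPM in the control libraries, 0.0333, 0.0475 and 0.0142 under clonidine and 0.0393, 0.0379 and 0.0569 in those titled guanabenz. Its highest group mean, 0.064 ± 0.0286 CPM (n = 3), was that of clonidine-treated wild-type hosts, against 0.0342 ± 0.0118 in their controls. These values came from 38 and 26 counts and the group ranges of Tnfrsf17 overlapped. It failed the filter on low counts and has no test.

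**Figure D2:**
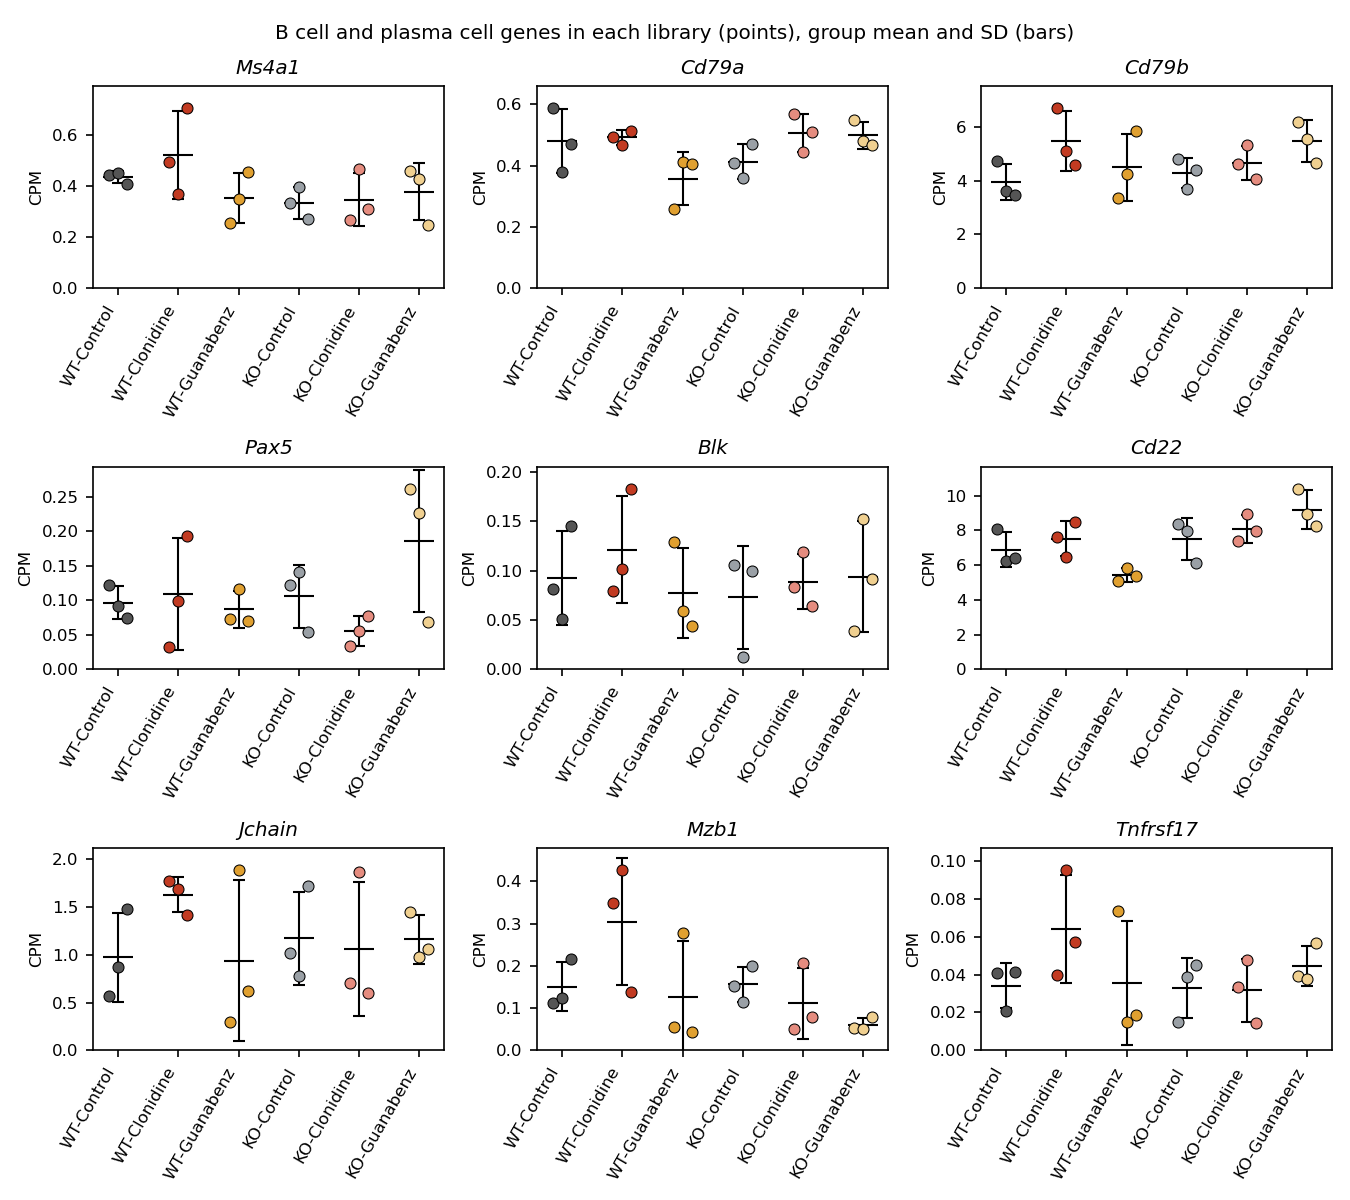
CPM of each of the 9 genes in the 18 libraries (points) by group, with group mean and SD (black bars, n = 3) and each axis starting at 0. Cd22 is lowest in the guanabenz-treated wild-type group (5.09 to 5.84), Jchain is high in all 3 clonidine-treated wild-type libraries (1.42 to 1.77), and most other groups overlap.

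**Figure D3:**
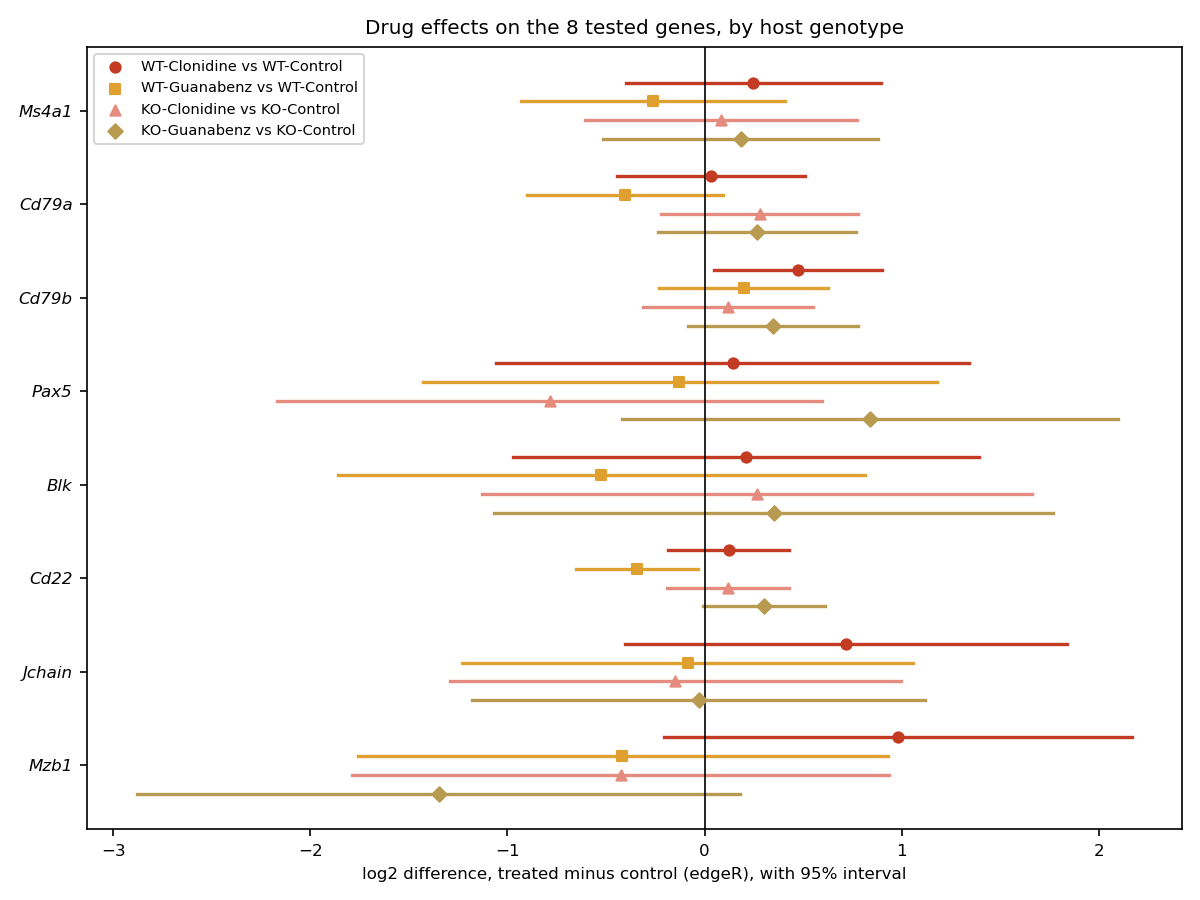
edgeR log2 differences between treated and control libraries for the 8 tested genes (points) with 95% intervals (lines), by drug and host genotype. Only the intervals of Cd79b under clonidine (0.049 to 0.901) and of Cd22 under guanabenz (-0.652 to -0.0308), both in wild-type hosts, leave out 0, without adjustment for the number of genes tested.

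The 6 B cell genes and the 2 tested plasma cell genes were also read as sets. In wild-type hosts, clonidine gave positive estimates for 6 of 6 B cell genes, with a median of 0.17 (log2) against 0.00 for all genes tested, and for 2 of 2 tested plasma cell genes, with a median of 0.85. Guanabenz gave 1 positive and 5 negative B cell estimates there, with a median of -0.30, and 2 of 2 negative plasma cell estimates, with a median of -0.25. In knockout hosts, the libraries titled guanabenz gave 6 of 6 positive B cell estimates (median 0.32) and 2 of 2 negative plasma cell estimates (median -0.69). Clonidine gave 5 of 6 positive B cell estimates (median 0.12) and 2 of 2 negative plasma cell estimates (median -0.29). The drug comparisons within a genotype share their control libraries. Medians over all genes tested lay between -0.01 and 0.01 in the 9 comparisons. Some of the B cell signs depended on 1 library. Without clonidine-treated wild-type library 3, the clonidine estimates in wild-type hosts were -0.02 for Ms4a1, -0.42 for Pax5 and -0.13 for Blk. Without wild-type control library 2, that of Cd79a was -0.10. Those of Cd79b and Cd22 stayed positive in all 16 alternatives. In the other comparisons some signs also changed with 1 library left out. The counts of signs are descriptions of estimates that did not pass the adjusted test.

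Across the 18 libraries, the plasma cell genes Jchain and Mzb1 were correlated. Their levels (log2 CPM) had a Pearson r of 0.705 (permutation p = 0.00111, adjusted p = 0.0311 over the 28 pairs of the 8 tested genes) and a Spearman rho of 0.75 (permutation p = 0.00053, adjusted p = 0.0148). It was 0.675 without the 2 libraries farthest from the median and 0.806 after the group means were taken out. No other pair passed after adjustment. Cd79a and Cd22 had an r of 0.587 (permutation p = 0.00871, adjusted p = 0.122; rho 0.457, adjusted p = 0.372). The heterodimer partners Cd79a and Cd79b had an r of 0.504 (permutation p = 0.0302, adjusted p = 0.282), which was 0.207 without the 2 farthest libraries, and so rests on them, and 0.552 after the group means were taken out. The lowest of the 28, Pax5 with Mzb1, was -0.221 (permutation p = 0.378). Libraries shared depth and scaling across genes, and Mzb1 had under 10 counts in 7 of them.

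**Figure D4:**
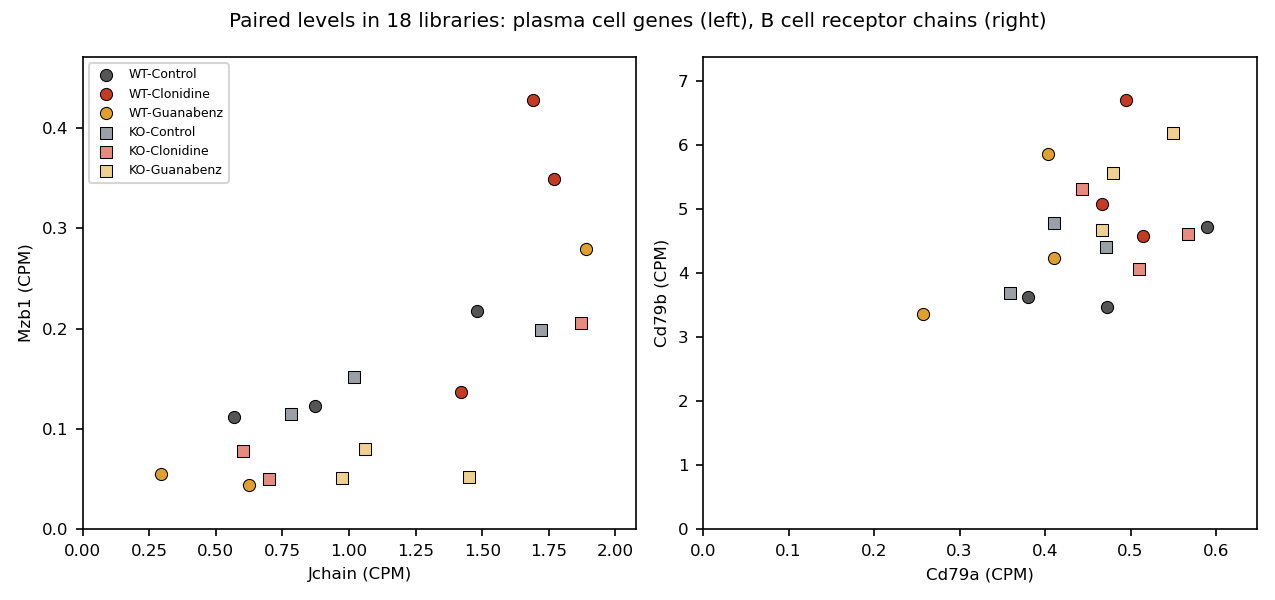
CPM of Mzb1 against Jchain (left) and of Cd79b against Cd79a (right) in 18 libraries, circles for wild-type and squares for knockout hosts, coloured by treatment, with axes from 0. Mzb1 is high where Jchain is high (r = 0.705 on log2 values), and the receptor chains scatter more loosely (r = 0.504).

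The genes whose levels most resembled these were sought among 13665 with a mean of at least 0.5 CPM. For the mean standardised log2 CPM of the 6 B cell genes over 18 libraries the highest were Slc31a2 (Pearson r 0.818), a copper transporter gene, Pianp (0.792) and Il16 (0.765), a leukocyte cytokine gene, followed by Trim13, Lag3, Tnfsfm13, Serp2 and Adam19 at 0.735 to 0.75. For the plasma cell genes they were Nr1h3 (0.799), encoding the oxysterol receptor LXR-alpha, and Sirpa (0.798), a surface receptor of myeloid cells, followed by Myo1f, Tmem230, Smpdl3a, Ipo13, Mcee and Ptpro at 0.745 to 0.774. No other gene of the B cell surface or plasma cell lists was among these. Without clonidine-treated wild-type library 3, 2 of the 8 genes named for the B cell set remained among its top 8, and without library 2 of that group 4 of the 8 for the plasma cell set.

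The other genes of the B lineage were read from lists. Of 20 surface and lineage genes in the table, 18 were tested. In wild-type hosts clonidine gave 16 positive and 2 negative estimates among them, with a median of 0.27 (log2), and edgeR called 0. At an unadjusted p under 0.05, 4 were higher and 1 was lower, where 12.9% of all genes passed. The higher ones were Bach2 (0.37), a repressor that holds off plasma cell fate, Tlr9 (0.41), Cd37 (0.30) and Cd180 (0.35), with adjusted p-values of 0.25 to 0.326 by edgeR. The lower one was Fcrl1, an Fc receptor-like gene of B cells, at -0.82 (adjusted p = 0.127, edgeR). Several on the list, such as Tlr9, Cd37 and Cd180, are known from macrophages and dendritic cells too. Between clonidine-treated hosts, where 2.5% of all genes were called, 1 was called, Cd37, lower in knockout tumours by a log2 difference of -0.47 (SE 0.117, adjusted p = 0.0464, edgeR), at 16.7 ± 2.99 against 23 ± 2.42 CPM (n = 3). The summed level of the list ran from 303 to 397 CPM in wild-type controls and 357 to 473 under clonidine, so these overlapped. Most of that sum came from Cd72, Pou2f2, Ebf1 and Cd180, with means of 135, 56.8, 49.8 and 39.7 CPM in wild-type controls. Others on the list were near the floor there, such as Pou2af1 at 0.231 and Fcmr at 0.0471 CPM. How much of the sum came from B cells was not tested.

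Of 12 genes that carry the B cell receptor's signal, 11 had positive clonidine estimates in wild-type hosts (median 0.17), with 0 called by edgeR and 3 at an unadjusted p under 0.05. Those 3 were the kinase gene Lyn (0.19), the phosphatase gene Ptpn6 (0.25) and the adaptor gene Pik3ap1 (0.32). Of 14 plasma cell genes besides the members, 8 were positive and 6 negative, with a median of 0.02 and 0 called by edgeR (4 higher and 1 lower at an unadjusted p under 0.05). Their smallest unadjusted p-values belonged to genes on both sides of 0: Fcrl5 gave 1.42, the transcription factor gene Irf4 0.78, and Tent5c, a poly(A) polymerase gene of plasma cells, -0.60, with adjusted p-values of 0.168 to 0.21 by edgeR. Fcrl5 read 0.833 to 3.35 CPM in the clonidine-treated wild-type libraries and 0.623 to 1.06 in their controls. Tent5c was higher in knockout than wild-type tumours under clonidine by 0.77 (SE 0.172, adjusted p = 0.0307, edgeR), the 1 call on this list, where 2.5% of all genes were called. Immunoglobulin genes were not analysed here.

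Germinal centre genes were scarce: 6 of 8 were tested, with 2 positive and 4 negative clonidine estimates in wild-type hosts, a median of -0.05 and 0 called by edgeR (2 at an unadjusted p under 0.05, Gcsam at 0.99 and Bcl6 at 0.30). Of 12 tested chemoattractants, survival factors and receptors, 8 were positive (median 0.31), 0 were called and 2 had an unadjusted p under 0.05, Cxcl13 and Ccr7. Cxcl13 read 0.209, 0.524 and 0.934 CPM in order of size in wild-type controls and 2.01, 2.2 and 2.22 under clonidine, without overlap. Its log2 difference was 2.00 (SE 0.633, unadjusted p = 0.00604, adjusted p = 0.203, edgeR). How many of all genes separated without overlap here was not counted, and 12.9% had an unadjusted p under 0.05 by edgeR. In guanabenz-treated wild-type hosts Cxcl13 read 0.778 to 4.06 CPM, and in the 9 knockout libraries 0.152 to 0.831. The receptor gene Ccr7 gave 0.61 (adjusted p = 0.329, edgeR).

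T cell genes were read in the same tumours. Of the 18 measured, 18 had positive clonidine estimates in wild-type hosts, with a median of 0.76 (log2), 0 called by edgeR and 15 at an unadjusted p under 0.05 (12.9% of all genes), and their summed level was 98.1 to 131 CPM against 67.7 to 88.8 in controls. The summed level of the 6 B cell genes was 12.6 to 15.4 CPM in the same clonidine libraries and 10.8 to 14 in those controls, and that of the 3 plasma cell genes 1.61 to 2.21 against 0.72 to 1.74. Cd22 and Cd79b made up most of the B cell sum, and Jchain most of the plasma cell sum. The part of other cell types in these genes was not tested. Under clonidine the T cell sum in knockout hosts was 65.1 to 79.6 CPM, with 18 of 18 estimates below wild type and 3 called by edgeR (Cd5, Cd6 and Icos), where 2.5% of all genes were called. Ptprc gave 0.29 for clonidine in wild-type hosts (adjusted p = 0.267, edgeR). The part of overall leukocyte content in the B cell and plasma cell estimates was not tested.

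Jchain and Mzb1 are known from plasmacytoid dendritic cells as well. Of 8 genes of those cells, 5 had positive clonidine estimates in wild-type hosts (median 0.12) and 0 were called by edgeR, with 0 at an unadjusted p under 0.05. Their summed level, most of it from the widely expressed Tcf4 and Bst2, was 466 to 586 CPM in wild-type controls and 479 to 556 under clonidine. Siglech read 0.867 to 0.997 CPM in those controls and 1.02 to 1.08 under clonidine. Ccr9 read 0.538 to 0.966 and 1.02 to 1.13, and Klk1 0.112 to 0.154 and 0.204 to 0.251. Each of these was higher without overlap, at edgeR adjusted p-values of 0.471 to 0.839. The ranges of the other genes on the list overlapped, among them Pacsin1 (0.233 to 0.37 and 0.308 to 0.626) and Cox6a2 (3.34 to 4.36 and 3.65 to 4.02). The share of all genes that separated in this way was not counted. The part of plasmacytoid dendritic cells in Jchain and Mzb1 was not tested. Lymph node tissue was checked through 7 genes of its stroma and high endothelial venules: Chst4 was at 0 in all 18 libraries, Glycam1 did not exceed 0.0568 CPM and Ccl21a 0.0608 CPM. The sum of the 7, nearly all from the widely expressed Clu, was 44.6 to 95.2 CPM in wild-type controls and 64.3 to 71.6 under clonidine.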

How the data were processed

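RNA sequencing of 18 libraries of whole tumours was analysed from 1 deposited table of estimated counts per gene. Per the submitters' processing notes, which list tools and no order, the authors used Trim Galore 0.6.5, kallisto 0.46.0 and the GRCm38 genome build. No source used here says how transcripts were summed to genes or which strand setting was used. The table's Entrez identifiers were matched to symbols (20994 of 21015), and 1829 genes had no counts.

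The expected counts, as deposited, were rounded to whole numbers and fitted in R 4.3.3 with edgeR 4.0.16 (filterByExpr, TMM scaling, quasi-likelihood test, 6 group means, two-sided, Benjamini-Hochberg over 16125 genes, threshold 0.05). The 18 libraries share 1 estimate of spread, with 12 residual degrees of freedom. On simulated data with 16026 genes for clonidine against control in wild-type hosts, 71% of 2-fold and 99% of 4-fold changes were recovered. The changes were placed only in genes above a minimum mean level that Pax5, Blk and Mzb1 did not reach, so these shares do not cover them. They are averages over genes and not the power for any single member. The simulation held 100 changes of each size, and many true changes ease the adjusted threshold. The real comparison called 0 genes, so the shares can overstate what it could detect. Groups follow the titles. Alternatives were DESeq2 1.42.0, limma-voom (limma 3.58.1), other scaling and filters, fits of the compared groups alone, a replicate block, each library left out, other readings of the libraries titled KO-Guanabenz, and a term for Y-linked transcripts. Correlations used log2 CPM with a prior count of 2 and 100000 permutations. No 2 libraries of a group were alike within counting error.

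The members and the gene lists were chosen with earlier results of these data known. All 9 members are named. Of each other list, at most the 5 genes with the smallest unadjusted p in clonidine against control in wild-type hosts, or in the clonidine effect in wild-type minus knockout hosts, are named, plus any that passed the adjusted threshold. The 8 genes most like the members in each set follow by Pearson r. Cd3e, genes given as checks of content and genes named for their share of a summed level fall outside that rule. They were chosen after their values were seen. Lengths, strands and overlapping exons came from GENCODE vM21, gene positions from RefSeq and promoter sequences from RefSeq (GRCm38.p6). Results for withheld items are not reported here.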

Additional observations from a re-analysis of the deposited data

How the results depend on the processing

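None of the 8 tested genes was called in any comparison under the edgeR and DESeq2 settings tried. The exception among all settings was limma-voom with quality weights in KO-Clonidine vs WT-Clonidine, where the count was 1 (Mzb1, log2 difference -1.98). The cause was not tested, and DESeq2 returned no adjusted p for Mzb1 in that comparison. The counts of members called were 0 in every fit that left out 1 library. Counts over all genes moved far more. In the order of clonidine and guanabenz in wild-type hosts, the same in knockout hosts, knockout against wild-type controls, clonidine-treated knockout against wild type, clonidine against guanabenz, and the 2 genotype differences, edgeR called 0, 0, 3, 2, 1, 403, 0, 0 and 1 genes. DESeq2 called 355, 171, 29, 457, 17, 1148, 4, 37 and 13, and limma-voom 773, 6, 3, 343, 1, 1266, 1, 2 and 2. The 403 calls became 4 with the 2 groups fitted alone and 1 to 312 with 1 library left out (48, 2 and 1 without WT-Clonidine 1, 2 and 3, and 70, 312 and 5 without KO-Clonidine 1, 2 and 3). They were 213 with the term for Y-linked transcripts, 220 without the libraries titled KO-Guanabenz and 249 with total-count scaling.

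With the replicate number as a block, 0 members were called in any comparison and the 9 counts over all genes were 0, 0, 0, 0, 0, 333, 0, 0 and 1. The numbers share no stated animal or day. Of 45 same-numbered pairs 10 correlated above 0.1 in their deviations from the group means (-0.331 to 0.253), and 5 of 18 libraries correlated best with their own number. Depth limited Pax5, Blk, Mzb1 and Tnfrsf17, which had under 10 counts in 9, 11, 7 and 16 libraries. The stricter filter left 3 members to test. By Spearman rho, 4 of the 8 genes most like each set remained, and without the library with the highest member level 2 (B cell set) and 4 (plasma cell set).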
